A study of Mus musculus with 20 samples.

Results

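SUMO is a small protein that is joined to other proteins after translation and changes what they bind. A SUMO precursor is trimmed by a SENP protease, activated by the E1 enzyme (a heterodimer of SAE1 and UBA2) and then conjugated to its target, often with the help of an E3 ligase such as a PIAS protein. SENP proteases also take it off again. Corepressor complexes are among the known readers and targets of SUMO, and ZMYM2, a zinc finger protein of such complexes, binds it. The genes described here are 8 members of this conjugation pathway, chosen by symbol: Sumo2 and Sumo3 (the modifiers), Sae1 and Uba2 (E1), Pias1, Pias2 and Pias4 (E3 ligases) and Senp1 (a protease). All 8 stand in each of the 3 count tables, which hold 22729 genes (embryos), 20159 (mESCs) and 20142 (EBs), and all 8 passed the count filter in every comparison.

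RNA was sequenced from 12 whole C57BL/6 embryos, each a library of its own, collected at E8.5. Of these 6 were Zmym2+/+ and 6 Zmym2-/-, with both sexes equally represented in each genotype. The Zmym2- allele is a frameshift early in the coding sequence, and the embryos taken were those without visible abnormality, so the comparison covers mutants that looked normal at this stage. The other 8 libraries came from V6.5 mouse embryonic stem cells (mESCs, C57BL/6 x 129/SvJae) in serum and LIF at day 0 and from embryoid bodies (EBs, aggregates of differentiating mESCs) at day 3, each from 2 control lines that carried a non-targeting guide RNA and 2 Zmym2-/- lines made with CRISPR. Each line is clonal, so a difference between genotypes in the lines rests on 2 clones against 2.

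Libraries held 32016880 to 64057608 counts, and every member had at least 699 counts in every library. Levels are given as CPM, counts scaled to library size over all 20 libraries. Zmym2 itself checked the labels of the lines: its mean was 70.5 CPM in control and 28.5 in Zmym2-/- mESCs, and 92.5 and 31.1 CPM in EBs (adjusted p = 3.07e-06 and 9.70e-08, edgeR). In embryos the Zmym2+/+ libraries lay at 51.1 to 130.04 CPM and the Zmym2-/- libraries at 26.1 to 68.6, so the groups overlapped (log2 difference -0.91, adjusted p = 0.226). The overlap lay in the males (51.1 to 93.0 against 55.5 to 68.6 CPM), while the females lay apart (82.8 to 130.04 against 26.1 to 40.7 CPM). The sex by genotype interaction of Zmym2 was 1.39 (log2) and did not pass (adjusted p = 0.0689, edgeR). A frameshift does not delete the transcript, so the Zmym2 level is an incomplete check of the embryos. Pluripotency markers (Pou5f1, Nanog and 4 others) summed to 3457 and 3628 CPM in control mESCs, 2890 and 2748 in Zmym2-/- mESCs and 1563 to 1661 in EBs. Markers of early differentiation (Fgf5, Otx2 and 3 others) summed to 268 and 192 CPM in control mESCs, 628 and 885 in Zmym2-/- mESCs and 2881 to 3296 in EBs. Paraxial mesoderm markers (Tbx6, Meox1 and 2 others) summed to 238 and 229 CPM in control and 70.3 and 48.8 in Zmym2-/- mESCs. Control mESCs thus exceeded the embryos (6.66 to 96.3 CPM) and the EBs (32.1 to 78.6), so this sum cannot be read as mesoderm in mESCs. The Zmym2-/- mESCs thus stood apart from control in these markers.

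Sumo2 and Sumo3 encode nearly the same protein, so it matters whether reads tell them apart. Sumo2 lies at chr11:115523102-115536276 on the minus strand and Sumo3 at chr10:77606097-77618331 on the plus strand (GRCm38, GENCODE vM21). Their coding sequences were identical at 81.2% of 282 aligned bases, and the longest identical run was 17 bases, well below the 100 bases at which sharing was examined. The most alike stretch of 60 coding bases is shown because it is the place where the genes are hardest to separate. It runs over the junction of exons 2 and 3 of 4 in both genes, so the coordinates span the intron between them, and capitals mark the 6 bases that differ.
Sumo2, coding bases 149 to 208, chr11:115530363-115534556, minus strand: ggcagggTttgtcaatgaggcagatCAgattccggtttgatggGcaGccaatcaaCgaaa
Sumo3, coding bases 146 to 205, chr10:77609936-77614034, plus strand: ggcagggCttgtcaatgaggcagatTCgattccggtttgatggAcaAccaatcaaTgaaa
No stretch of 100 bases was shared between the Sumo2 and Sumo3 transcripts. Other copies do share such stretches: 19.9% of the windows of 100 bases along Sumo2 also occur in 7 other annotated genes, among them the pseudogene Smt3h2-ps4, and 9.76% of those along Sumo3 occur in Gm49325, an annotated protein-coding gene that shares 346 exonic bases with Sumo3 on the same strand. Reads from these stretches cannot be given to 1 gene, so the levels of Sumo2 and Sumo3 carry that uncertainty. For Sae1, Uba2, Pias1, Pias2, Pias4 and Senp1 the share was 0%. Senp1 overlaps the antisense gene Gm26513 over 462 exonic bases, and whether the counting used strand is not given in the sources used here.

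The other members lie apart from each other in the genome. The E1 genes share a chromosome, with Sae1 at chr7:16320234-16387806 and Uba2 at chr7:34140688-34169599, both on the minus strand. The ligase Pias1 lies at chr9:62878368-62987924, Pias4 at chr10:81153266-81167923 and the protease Senp1 at chr15:98038744-98093744, all on the minus strand.

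Per length, the means of the modifiers and the E1 subunits stood above those of the ligases and the protease in every group, most narrowly for Sumo3 (44.3 RPKM) over Pias2 (30.7) in control mESCs. In RPKM, reads scaled to gene length and library size, Sae1 was the highest of the 8 in every group, at a mean of 198.9 in Zmym2+/+ embryos, 166.8 in control mESCs and 173.8 in control EBs. Sumo2 came next in every group, at 93.7, 143.0 and 165.8 RPKM. Sumo3 and Uba2 followed and exchanged places: Uba2 (89.6 RPKM) was above Sumo3 (44.3) in both control mESC libraries, and Sumo3 (65.9) was above Uba2 (61.6) in both control EB libraries. In Zmym2+/+ embryos the ranges of these 2 genes overlapped, and Uba2 was the higher in 3 of 6. Pias2 had the highest mean of the 3 ligases in all 6 groups, at 30.7 RPKM in control mESCs and 11.4 in Zmym2+/+ embryos. The lowest place changed: it was Senp1 in embryos (4.81 RPKM in Zmym2+/+, below Pias1 in 6 of 6 embryos although the ranges overlapped) and Pias1 in the lines (3.34 RPKM in control mESCs). Embryo and line RPKM come from separate tables, so a single gene is not compared between them on this scale. 

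**Figure D1:**
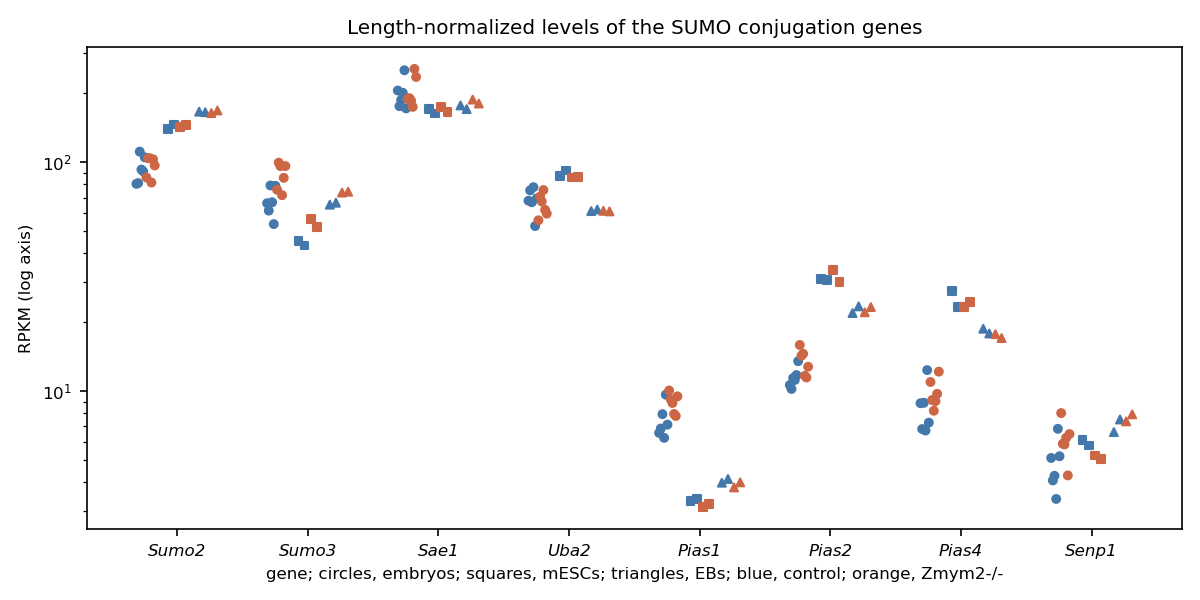
RPKM (log axis) of the 8 genes by library, with circles for embryos, squares for mESCs and triangles for EBs, blue for control and orange for Zmym2-/-. Sae1 and Sumo2 lead in every group, and Pias2 and Pias4 stand above Pias1 and Senp1 in all 8 libraries of the lines.

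The first question was whether the machinery of SUMO conjugation changes at the RNA level when ZMYM2, which binds SUMO, is lost. Only Sumo3, per length the less abundant of both modifiers, passed the test: it was higher in Zmym2-/- mESCs by 0.29 (log2, SE 0.083, adjusted p = 0.0241). None of the other 7 members passed in mESCs, and no member passed in embryos or in EBs. Of all genes tested 19.2% were called in mESCs (10.3% higher and 8.94% lower), 0.524% in embryos (0.51% higher and 0.0132% lower) and 7.39% in EBs (4.62% higher and 2.77% lower). Without control mESC line 2 the count over all genes in mESCs fell from 3871 to 2351. At an unadjusted p under 0.05 there were 2 members in mESCs (Sumo3 and Senp1), 0 in embryos and 1 in EBs (Sumo3), and DESeq2 called 1, 0 and 0.

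Sumo3 in mESCs was 170 and 162 CPM in the control lines and 213 and 191 CPM in the Zmym2-/- lines. Both Zmym2-/- libraries were above both controls. The same libraries were higher in early differentiation markers (628 and 885 against 268 and 192 CPM) and lower in pluripotency markers, and Sumo3 was also higher in EBs than in mESCs of the control lines (0.53). Both comparisons use the same control mESC libraries, and the part of this shift in the Sumo3 difference was not tested. The call rested on single clones, since without control line 2 the log2 difference was 0.27 (adjusted p = 0.120) and without Zmym2-/- line 1 it was 0.22 (adjusted p = 0.124). In EBs Sumo3 was 239 and 243 CPM in control and 267 and 262 in Zmym2-/- libraries, again without overlap, with a smaller difference that did not pass (0.15, SE 0.048, adjusted p = 0.0795). Its difference between the stages, tested as the stage by genotype interaction, was -0.14 (SE 0.090, adjusted p = 0.424).

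In embryos the lowest, median and highest Sumo3 levels were 207, 269 and 309 CPM in Zmym2+/+ and 272, 346 and 369 CPM in Zmym2-/-. The groups overlapped, and the log2 difference of 0.27 (SE 0.124, 95% interval -0.00016 to 0.53) did not pass (adjusted p = 0.414). The embryos' names place them in 2 series, H with 4 Zmym2+/+ and 2 Zmym2-/- embryos and J with 2 and 4, so series and genotype are partly confounded. Within H the difference was 0.27 and within J 0.14, and with series in the fit it was 0.20 (adjusted p = 0.543). Over the 7 embryos from litters with both genotypes, as read from the numbers in their names, it was 0.18 (adjusted p = 0.536).

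Sumo2, per length the more abundant modifier, did not pass at any stage. It was 248 and 260 CPM in control mESCs and 256 and 254 in Zmym2-/- mESCs (0.02, 95% interval -0.15 to 0.18), and 289 and 287 CPM against 282 and 282 in EBs (-0.01, 95% interval -0.11 to 0.09). In embryos its lowest, median and highest levels were 149, 164 and 197 CPM in Zmym2+/+ and 140, 168 and 185 CPM in Zmym2-/- (-0.06, 95% interval -0.29 to 0.16). The embryo interval is the widest of the 3.

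The E1 subunits did not pass at any stage. Sae1, which helps UBA2 to adenylate SUMO, was 452 and 435 CPM in control against 470 and 432 in Zmym2-/- mESCs (0.03, 95% interval -0.13 to 0.20) and differed by 0.07 in EBs and -0.05 in embryos. The sign for Sae1 in embryos turned with series in the fit (0.03). Uba2, which carries the catalytic cysteine, was 537 and 570 CPM against 535 and 521 (-0.06, 95% interval -0.21 to 0.10), and its differences in EBs (-0.03) and embryos (-0.18, SE 0.135) had the same sign.

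No ligase passed at any stage. In the 3 genotype comparisons Pias1, Pias2 and Pias4 gave log2 differences between -0.09 and 0.17, and the smallest of their adjusted p-values was 0.522 (Pias4 in EBs). Pias1 was 23.0 and 23.7 CPM in control mESCs and 22.0 and 21.9 in Zmym2-/- mESCs, which did not overlap, and its interval ran from -0.34 to 0.18. With CPM scaled within the mESC table, 3 of 8 members did not overlap between the groups of 2 libraries (Sumo3, Pias1 and Senp1), where 60% of all genes did not. Within the EB table these were 5 of 8 (Sumo3, Sae1, Uba2, Pias1 and Pias4), where 50.6% of genes did not. Small gaps turned with the scaling: on the scale of all 20 libraries, in which levels are printed here, Uba2 in mESCs and Sumo2 in EBs also lay lower without overlap, and Sae1 in EBs overlapped. In embryos all 8 members overlapped, where 1.18% of genes did not.

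Senp1, the protease that trims SUMO precursors and removes SUMO, was 73.9 and 70.3 CPM in control and 64.3 and 59.98 in Zmym2-/- mESCs. It was lower in both Zmym2-/- libraries, but the difference of -0.20 (SE 0.092, unadjusted p = 0.0441) did not pass (adjusted p = 0.145). In EBs it was 78.7 and 89.2 against 86.6 and 90.6 CPM, with overlap (0.10, adjusted p = 0.502). In embryos the lowest, median and highest were 41.8, 57.9 and 81.9 CPM in Zmym2+/+ and 52.7, 70.7 and 89.3 CPM in Zmym2-/- (0.25, SE 0.160, adjusted p = 0.551). No member passed the sex by genotype interaction in embryos, where 0% of genes did. As read from their names, the Zmym2-/- males all came from 1 litter with no Zmym2+/+ embryo sequenced. In males, litter and genotype therefore cannot be told apart. No member had an unadjusted p under 0.05 in this interaction, and DESeq2 called 0 members but 2539 genes. The count over all genes depended on single embryos: it was 1653 without Zmym2+/+ embryo 3, 735 without Zmym2+/+ embryo 4, 208 without Zmym2-/- embryo 4 and 1 without Zmym2+/+ embryo 6, with 0 members in each.

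**Figure D2:**
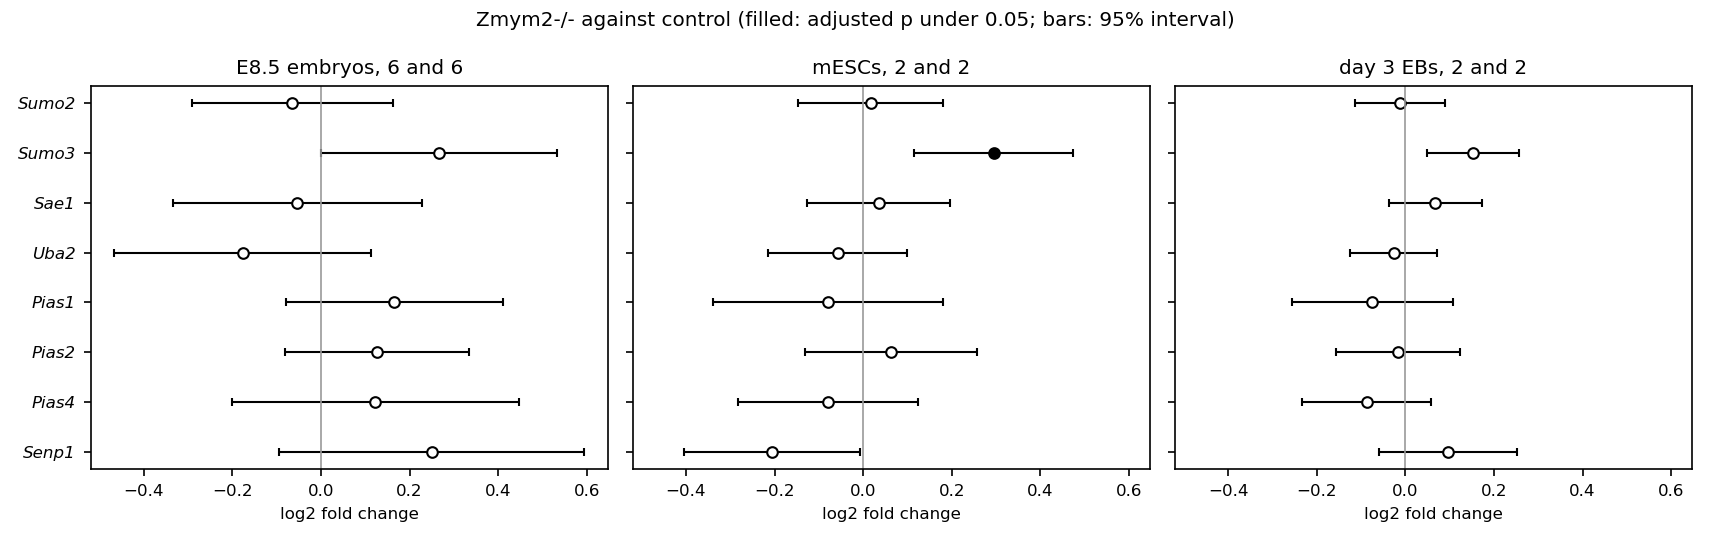
Log2 fold change of each gene in Zmym2-/- against control in E8.5 embryos, mESCs and day 3 EBs, with 95% intervals from edgeR and filled points at an adjusted p under 0.05. The only filled point is Sumo3 in mESCs, at 0.29.

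Among the members the ratio of Sumo2 to Sumo3 separated the genotypes at each stage, a pattern picked out after its values were seen and so given without a test. Within a library the ratio of the 2 RPKM values was 3.08 and 3.38 in control mESCs and 2.54 and 2.80 in Zmym2-/- mESCs. In EBs it was 2.55 and 2.49 in control and 2.23 and 2.27 in Zmym2-/- libraries. In embryos it ran from 1.22 to 1.70 in Zmym2+/+ and from 1.01 to 1.21 in Zmym2-/-, so the groups did not overlap but nearly met. Within series H the ranges were 1.22 to 1.70 and 1.14 to 1.21, and within series J 1.33 to 1.41 and 1.01 to 1.13. As read from their names, the Zmym2-/- males are all of series J and of 1 litter with no Zmym2+/+ embryo sequenced. Litter and genotype cannot be told apart for them. Of the 28 pairs of members Sumo2 and Sumo3 were the only pair whose ratio did not overlap between genotypes in embryos. Of 11015 genes with a mean of at least 5 CPM, 6.05% had a CPM ratio to Sumo3 that did not overlap between genotypes in embryos, 3.56% at all 3 stages in 1 direction and 3.4% lower in Zmym2-/- at all 3, as Sumo2 was. The ratio to Sumo2 did not overlap in embryos for 0.708% of genes and was higher at all 3 stages, as Sumo3 was, for 0.39%.

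**Figure D3:**
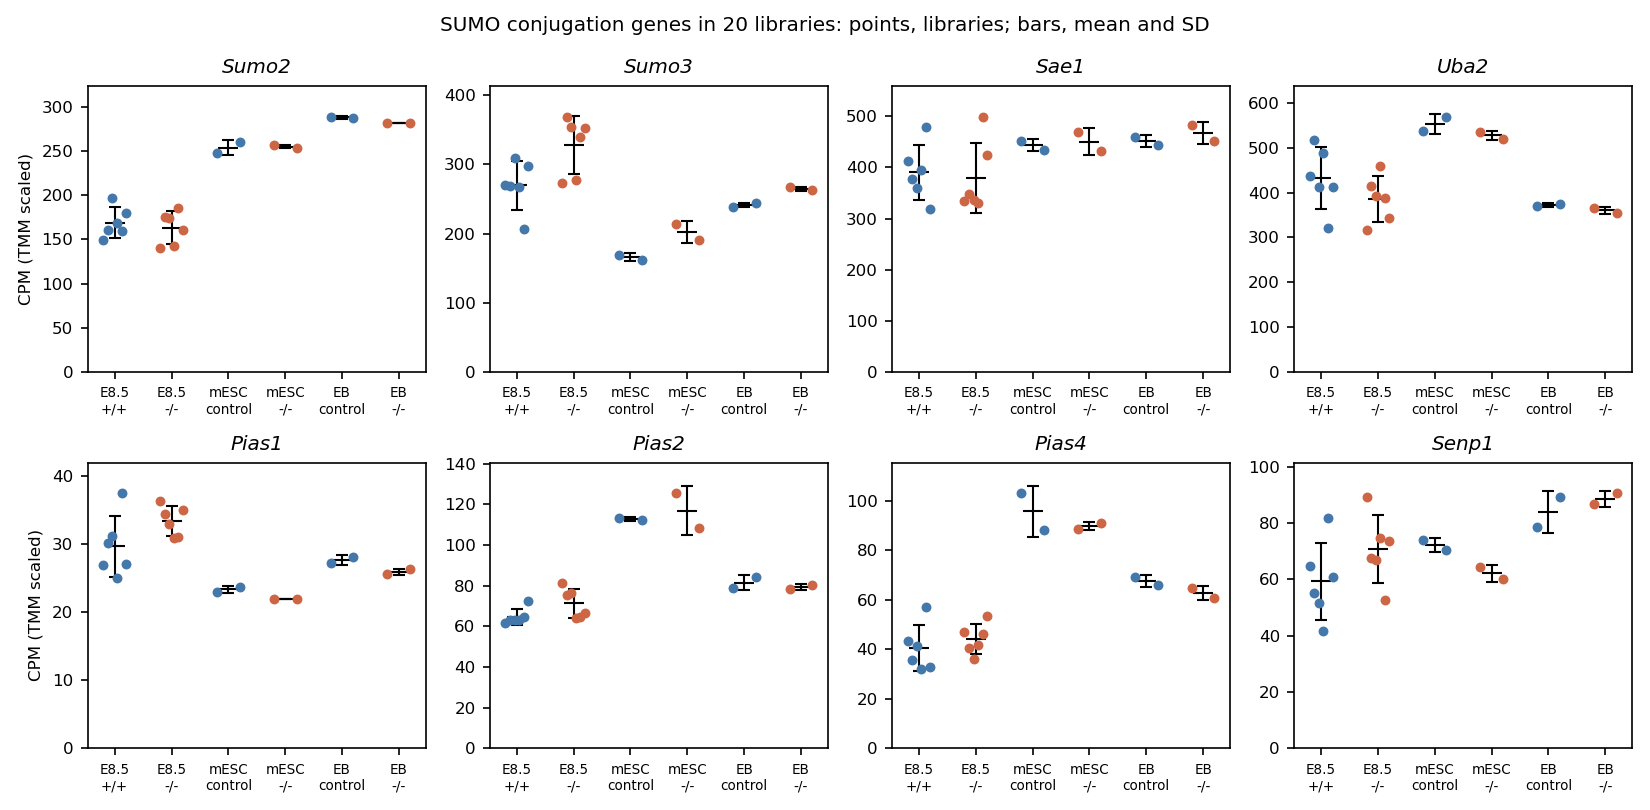
CPM of the 8 genes in each library (points), with the mean and SD of each group, blue for control and orange for Zmym2-/-, on 1 TMM scale over 20 libraries. Sumo3 in mESCs lies at 162 and 170 CPM in control and at 191 and 213 CPM in Zmym2-/- libraries, and Uba2, Pias2 and Pias4 lie lower in EBs than in mESCs.

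The second question was how the pathway changes when mESCs leave pluripotency. In the control lines 7 of 8 members passed between mESCs and EBs, 4 higher in EBs and 3 lower, where 46.6% of 18926 genes passed (23% higher and 23.6% lower). The median of the members' absolute log2 differences was 0.36, and that of all genes was 0.46. All genes take in those with few counts and were not matched to the members in level, so these medians are not like for like. The members moved in both directions: both modifiers rose, 1 of 2 E1 subunits fell, 2 of 3 ligases fell, and the third ligase and the protease rose.

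Both modifiers were higher in EBs, Sumo3 by 0.53 (SE 0.064, adjusted p = 2.05e-05) and Sumo2 by 0.17 (SE 0.056, adjusted p = 0.0210). Sumo3 went from 170 and 162 to 239 and 243 CPM. Sumo2 went from 248 and 260 to 289 and 287 CPM, and its call was lost without control mESC line 1 (adjusted p = 0.113), control EB line 1 (0.149) or control EB line 2 (0.0898). The E1 subunits parted. Uba2 fell from 537 and 570 to 369 and 375 CPM (-0.58, SE 0.055, adjusted p = 2.74e-06), while Sae1, its partner in the heterodimer, was 452 and 435 in mESCs and 460 and 443 CPM in EBs (0.02, 95% interval -0.11 to 0.15). Per length Sae1 was 1.77 and 1.95 times Uba2 in control mESCs and 2.75 and 2.896 times in control EBs.

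Pias2 fell from 113 and 112 to 78.7 and 84.1 CPM (-0.48, SE 0.077, adjusted p = 2.45e-04), and Pias4 from 103 and 88.3 to 69.3 and 65.9 CPM (-0.51, SE 0.082, adjusted p = 2.26e-04). Pias1 rose from 23.0 and 23.7 to 27.2 and 28.2 CPM (0.24, SE 0.091, adjusted p = 0.0473), and Senp1 from 73.9 and 70.3 to 78.7 and 89.2 CPM (0.21, SE 0.079, adjusted p = 0.0437). The last 2 calls were close to the threshold. DESeq2 did not call Pias1 (adjusted p = 0.0718), and leaving out single libraries ended the call of Pias1 in 6 of 8 fits and that of Senp1 in 5 of 8, with the highest adjusted p without control EB line 2 (0.212 and 0.372). The falls of Uba2, Pias2 and Pias4 and the rise of Sumo3 passed in all 8 of these fits.

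In the Zmym2-/- lines 6 of 8 members passed between mESCs and EBs, where 45.2% of 18926 genes did (23.1% higher and 22.1% lower). The falls were -0.55 for Uba2, -0.56 for Pias2 and -0.52 for Pias4, and the rises 0.39 for Sumo3, 0.24 for Pias1 and 0.51 for Senp1. Sumo2 differed by 0.14 (adjusted p = 0.0541, and 0.0464 or 0.0467 without control mESC line 1 or 2) and Sae1 by 0.05 (adjusted p = 0.523). Pias1 again lay near the threshold (adjusted p = 0.0476) and was lost with RLE size factors (0.0612), DESeq2 (0.0914), filterByExpr (0.0646) and in each of the 8 fits that left out a library (0.0530 to 0.185).

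No member passed the stage by genotype interaction, where 5.25% of 18926 genes did (3.07% higher and 2.18% lower). Over all genes the count of 993 ran from 404 to 1221 without 1 library, and it was 454 without control mESC line 2, 435 and 404 without control EB lines 1 and 2, and 488 and 479 without Zmym2-/- EB lines 1 and 2. At an unadjusted p under 0.05 there was 1 member, Senp1, and DESeq2 called 0. Senp1 rose by 0.21 in control and by 0.51 in Zmym2-/- lines, and the difference of the differences was 0.30 (SE 0.112, 95% interval 0.06 to 0.54, unadjusted p = 0.0199, adjusted p = 0.153). For the other 7 members it lay between -0.14 and 0.03.

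**Figure D4:**
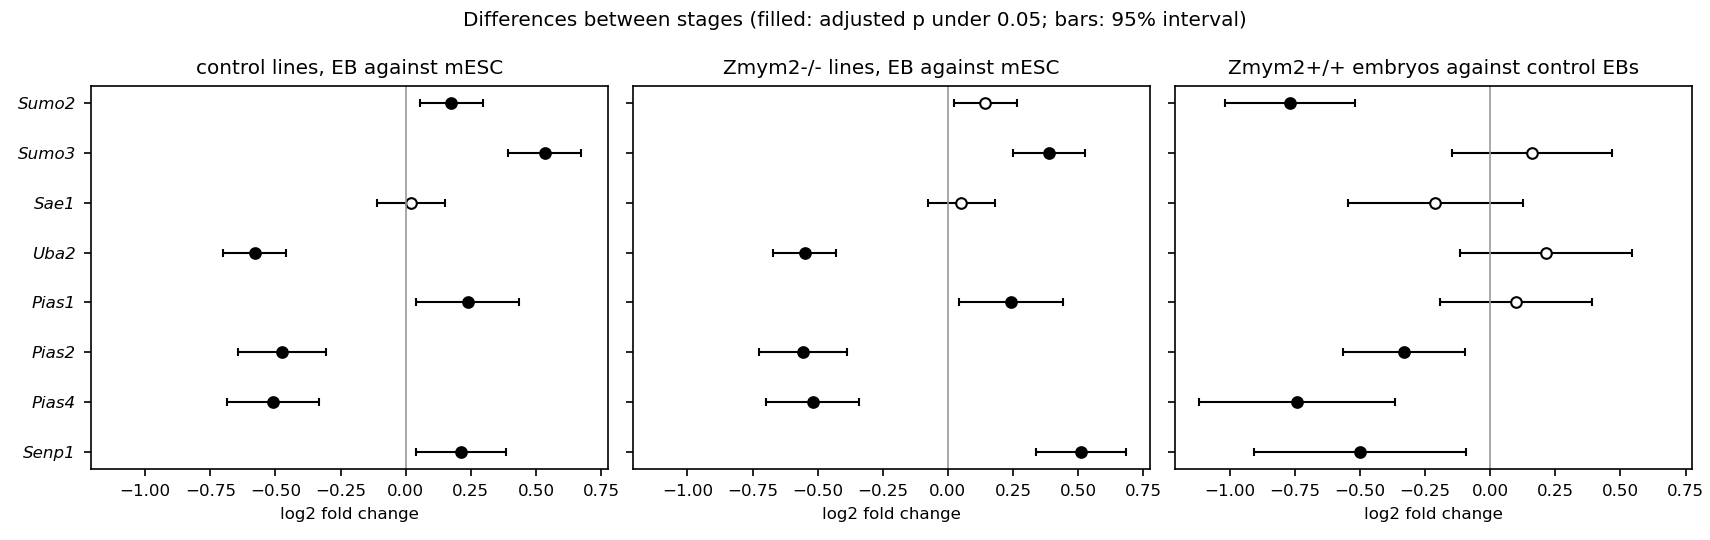
Log2 differences of each gene between EBs and mESCs in control lines, in Zmym2-/- lines, and between Zmym2+/+ embryos and control EBs, with 95% intervals from edgeR and filled points at an adjusted p under 0.05. Uba2, Pias2 and Pias4 lie between -0.48 and -0.58 in both sets of lines, and Sumo3, Pias1 and Senp1 lie above 0 in both.

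Embryos were compared with EBs to order the 3 stages. Strain, tissue and library set differ between them along with stage and cannot be told apart. Of the 8 members 4 were lower in Zmym2+/+ embryos than in control EBs and 0 were higher, where 53.9% of 17426 genes passed (26.8% lower and 27% higher). Sumo2 was lower (-0.77, SE 0.119, adjusted p = 3.92e-05), with all 6 embryos (149 to 197 CPM) below both EB libraries (287 and 289). Pias4 (-0.74, SE 0.179, adjusted p = 0.0021) and Pias2 (-0.33, SE 0.111, adjusted p = 0.0183) were lower too, again with all 6 embryos below both EB libraries. Senp1 was lower (-0.50, SE 0.193, adjusted p = 0.0367), with 1 embryo at 81.9 CPM inside the EB range. The calls of Pias2 and Senp1 were lost without either control EB library (adjusted p = 0.0590 and 0.154 for Pias2, 0.0827 and 0.232 for Senp1). That of Senp1 was also lost without Zmym2+/+ embryo 2, 3 or 4 or without either Zmym2-/- mESC library (0.0510 to 0.0629).

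The order of levels over the control samples thus differed by gene. Pias2 and Pias4 were highest in mESCs, lower in EBs and lowest in embryos. Sumo2 was highest in EBs and lowest in embryos. Uba2 was highest in mESCs, and its embryo range (320 to 518 CPM) took in the EB values. Sumo3 rose from mESCs (162 and 170 CPM) to EBs (239 and 243), and the embryos (207 to 309) did not differ from EBs beyond their spread (0.16, adjusted p = 0.365). Pias1 in embryos ran from 25.1 to 37.5 CPM and Sae1 from 319 to 479 CPM, both ranges holding those of the EBs. In whole embryos and in lines a lower level can mean fewer cells of a type or less RNA per cell, and these cannot be told apart.

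Embryos of 1 genotype varied among themselves. The coefficient of variation of the members in Zmym2+/+ embryos ran from 5.96% (Pias2) to 23.1% (Pias4), against a median of 23.2% over 11016 genes. Zmym2+/+ embryo 5 stood farthest from its genotype's mean, with an average absolute deviation of 0.32 (log2) over the 8 genes. It was low in Sumo3 (207 CPM) and Uba2 (320) and high in Pias4 (57.1), Senp1 (81.9), Pias1 (37.5) and Sae1 (479). It also had the lowest sum of 7 primitive erythroid markers (Hbb-bh1, Hba-x and others), 24.9 CPM, where the other Zmym2+/+ embryos ran from 310.4 to 7600 and the 6 Zmym2-/- embryos ran from 50.4 to 3264. The sum of 8 visceral endoderm and yolk sac markers (Afp, Ttr and others) lay between 1458 and 3244 CPM in the Zmym2+/+ embryos and between 1975 and 7336 CPM in the Zmym2-/- embryos, with embryos 5 (6215) and 6 (7336) the highest. Zmym2-/- embryos 5 and 6 were also high in pluripotency markers (202 and 464 CPM, against 20.4 to 97.5 in the others), and embryo 6 was low in heart markers (18.8 CPM, against 115 to 393) and high in markers of motile ciliated cells (118 CPM, against 5.05 to 28.4). The part of these cells in the members' values was not tested. Without Zmym2-/- embryos 5 and 6 or without Zmym2+/+ embryo 5 no member passed in the embryos, as with all 12.

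**Figure D5:**
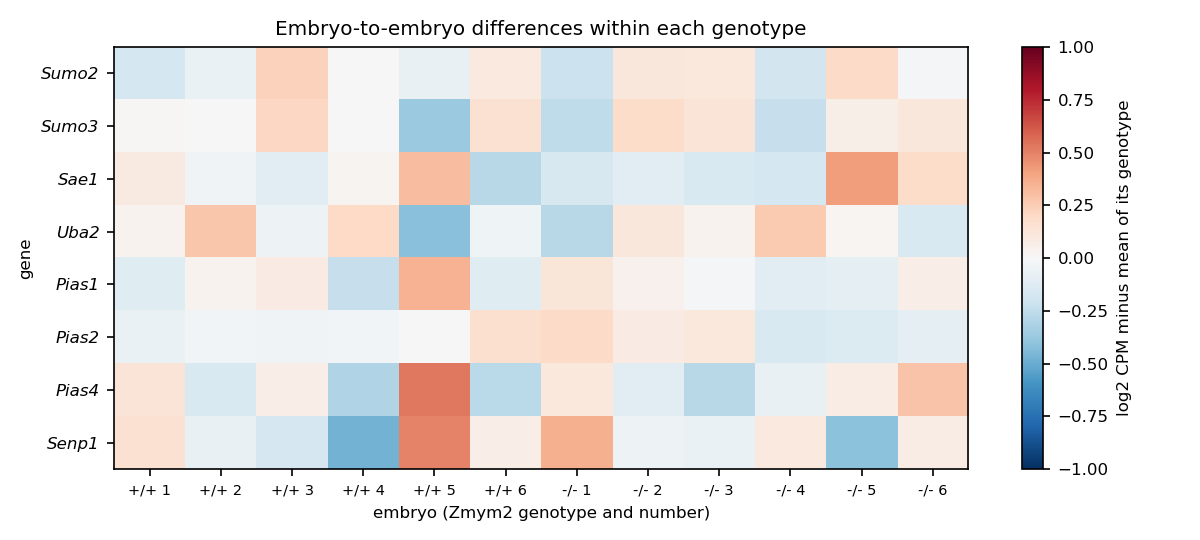
Deviation of each embryo's log2 CPM from the mean of its genotype (colour, red above and blue below) for the 8 genes (rows) in the 12 E8.5 embryos (columns). Zmym2+/+ embryo 5 deviates most, 0.53 above in Pias4 and 0.41 below in Uba2.

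The other genes of the pathway were taken from a list of 21, which holds further E3 ligases such as Pias3 and Topors, further proteases such as Senp3 and Senp6, and the SUMO-targeted ubiquitin ligases Rnf4 and Rnf111. In Zmym2-/- mESCs 1 was higher and 2 were lower, where 19.2% of all genes were called, so 3 of 21 is not above the background. These are the libraries with higher early differentiation markers. All 3 genes differed in the same direction between control mESCs and EBs (-0.94 for Senp3, -0.46 for Pias3 and 0.51 for Topors). Both comparisons use the same control mESC libraries, so their signs are not independent. The part of this shift in the 3 calls was not tested. Senp3, a nucleolar protease that prefers SUMO2 and SUMO3, fell from 384 and 435 CPM to 276 and 273 (-0.57, SE 0.081, adjusted p = 3.47e-04). Pias3, the fourth PIAS ligase, fell from 31.9 and 31.7 to 24.3 and 24.7 CPM (-0.37, adjusted p = 0.0373). Topors, a ligase for both SUMO and ubiquitin, rose from 92.7 and 90.1 to 119 and 109 CPM (0.33, adjusted p = 0.0167). None of the 21 passed in Zmym2-/- EBs or embryos (0 and 1 at an unadjusted p under 0.05), and the median log2 difference of the list lay between -0.05 and -0.01 at the 3 stages, beside 0.01 to 0.02 over all genes.

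Between stages the list moved in both directions, as the members did. In control lines 6 of 21 were higher in EBs and 5 were lower, and in Zmym2-/- lines 7 and 3, near the 46.6% and 45.2% of all genes called. The smallest p-values in control lines belonged to Senp3 (-0.94), Topors (0.51), Senp6 (0.47) and Zmiz1 (0.90). In Zmym2+/+ embryos 6 of 21 were higher than in control EBs and 5 were lower, near the 53.9% of all genes, among them Zmiz2 (-1.81), Nsmce2 (0.80) and Senp7 (1.501).

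For 7 of the members the gene with the most similar profile over the 20 libraries was named, by the smallest root mean square difference of centred log2 CPM among 11008 candidates. These were Fbxo7 for Sumo2 (0.098), Mat2a for Sumo3 (0.17), Sec23b for Sae1 (0.082), Trmt10b for Uba2 (0.11), Zwilch for Pias2 (0.12), Actn4 for Pias4 (0.083) and Nup153 for Senp1 (0.096). The members' own standard deviations on this scale were 0.20 (Sae1) to 0.50 (Pias4), and members were not candidates.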

How the data were processed

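According to the methods, reads were trimmed (Trimmomatic 0.34) and aligned to the mm10 genome (STAR 2.7.8a). The authors then marked duplicates with Picard (2.9.0) and counted reads per gene with HTSeq, and the strand setting and annotation of the counting are not given in the sources used here. The library kit keeps strand. Raw counts deposited by the authors are whole numbers without normalization. The normalized score deposited beside each count is the count over 1 factor per library and was only checked. RPKM deposited by the authors came from StringTie (1.3.5) and served only to compare genes within a library.

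The members and lists were chosen with earlier results of these data known. Counts were tested in R (4.3.3) with edgeR (4.0.16): at least 10 counts summed over the libraries, TMM scaling, the two-sided quasi-likelihood test and Benjamini-Hochberg adjustment over all genes, with calls at an adjusted p under 0.05. Genotypes were compared within each table, stages over the 8 libraries of the lines, and embryos with EBs over all 20 libraries. Standard errors are the log2 difference over the square root of F, and intervals are 95%. CPM are scaled by TMM over 20 libraries on 17426 genes. DESeq2 (1.42.0), RLE size factors, filterByExpr, blocks, covariates and left-out libraries were alternatives. The fits were tested on simulated data with log2 changes of 1 and 2 and without litters, series or clones. These changes were larger than any difference of a member, so differences of the members' size were not covered. Named are all members, Zmym2, called genes of the pathway list (at most 4 per comparison, by p) and the nearest gene of each member. Some genes that this rule names are not reported here. The 2 libraries of a group of lines are 2 clones, and p-values measure only the spread between these samples. Coding sequences come from GENCODE vM21, read with Python (3.11.15) and aligned with Biopython (1.88). No 2 libraries had identical counts, and replicates correlated at 0.944 to 0.990. Embryos sharing a number were not paired (r of deviations -0.43 to 0.36). Numbers of the lines are shared between mESCs and EBs (0.22 in control and 0.44 in Zmym2-/-), and line as a block was an alternative.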

Additional observations from a re-analysis of the deposited data

Results flagged for a closer look

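Pias2 in Zmym2+/+ embryos had 1 embryo apart from the rest: embryo 6 stood at 72.3 CPM and the other 5 between 61.6 and 64.4, a gap of 0.74 of the group's range, above the limit of 0.625. In all, 18 groups of 6 embryos were examined (8 members and Zmym2 in 2 genotypes), and about 1 in 20 is expected to pass this limit by chance. Without this embryo Pias2 differed between genotypes by 0.16 (log2), against 0.13 with all 12.

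Senp3 passed the test for a response to genotype that differs between stages. It was 1 of 21 genes of the pathway list to pass, where 5.25% of all genes did, so the count is not above the background. Its values without single libraries were not examined. The stage by genotype interaction was 0.46 (log2, SE 0.094, adjusted p = 0.0153): in Zmym2-/- against control lines the difference was -0.57 in mESCs, and in EBs the levels were 213 and 215 CPM in control against 202 and 192 in Zmym2-/- libraries.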

How the results depend on the processing

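In embryos 0 members passed under every alternative, Sumo3 passed in mESCs under all but 2 left-out libraries, and counts of members called without 1 library ran from 0 to 1 in mESCs, 4 to 7 between control stages, 5 to 6 between Zmym2-/- stages and 2 to 4 between embryos and EBs. The replicate block changed no count of members called (1 in mESCs, 0 in embryos and EBs, and with line as the block 7, 6 and 0 for the stages and their interaction), but moved the count over all genes from 119 to 49 in embryos, from 1489 to 2073 in EBs and from 993 to 2325 in the interaction. Other counts over all genes were 356 (DESeq2), 47 (series J), 1 (series H) and 1 (litter block) in embryos, 77 in embryos without Zmym2-/- embryos 5 and 6, and 955 in EBs when all 8 libraries of the lines were fitted. The cause was not tested.

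Signs turned for values near 0 that passed no test. In embryos these were Sae1 with the litter block (0.089), with series as covariate (0.032) and in series J (0.075), and Sumo2 in series H (0.030). For Pias1 the stage by genotype interaction was -0.010 with RLE, -0.011 with DESeq2 and -0.023 with filterByExpr, and for Sumo2 the sex by genotype interaction was 0.015 with both RLE and DESeq2.

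Without 1 library, the genotype difference ran from -0.14 to 0.0030 for Sae1 in embryos. In mESCs it ran from -0.020 to 0.056 for Sumo2, -0.018 to 0.097 for Sae1, -0.038 to 0.17 for Pias2 and -0.18 to 0.034 for Pias4, and in EBs from -0.065 to 0.031 for Pias2. Sae1 ran from -0.029 to 0.047 between control stages and from -0.0014 to 0.11 between Zmym2-/- stages. The stage by genotype interaction ran from -0.068 to 0.0031 for Sumo2, -0.022 to 0.087 for Sae1, -0.015 to 0.072 for Uba2, -0.023 to 0.030 for Pias1, -0.18 to 0.022 for Pias2 and -0.13 to 0.096 for Pias4. The sex by genotype interaction ran from -0.086 to 0.14 for Sumo2, -0.20 to 0.047 for Sumo3 and -0.068 to 0.25 for Pias1.

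The lowest count of a member in any library was 699 (Pias1 in mESCs). Groups of lines held 2 clones each, so differences of a few percent could not be told from the spread between clones.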
